A study of Mus musculus with 13 samples.

Results

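Brown adipose tissue of mice burns fuel to make heat when the animal is cold. The comparison described here asks whether its transcripts answered 6 h at 4 °C differently when the calcium sensors Stim1 and Stim2 were deleted from adipocytes. It takes the cold response of the knockout (cold minus room temperature, RT) and subtracts from it the cold response of the control. All 13 libraries of the series belong to it, 13 of 13, because each of the 4 groups enters the difference. The control group carries the label Stim1/2_fl/fl, which names floxed alleles and no Cre, while the series' design text calls the same animals wild type. The knockout group carries the label Stim1/2_Adp-Cre, in which Cre is driven by the adiponectin promoter and so acts in adipocytes of every depot, not in brown fat alone. Each genotype was kept at RT or moved to 4 °C for 6 h, which gave 2 control RT, 4 control cold, 3 KO RT and 4 KO cold libraries. The temperature called RT, the strain, the age and the sex of the animals are not given in the labels. Nothing in the labels states that each library is its own animal, so each p-value measures only the spread between these libraries, which may be technical. All libraries carry 1 batch label.

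STIM proteins sit in the membrane of the endoplasmic reticulum (ER) and sense the calcium held in its lumen. When the store empties, they cluster at contacts with the plasma membrane and open Orai channels, through which calcium enters the cell, a process called store-operated calcium entry. Many chaperones that fold proteins in the ER need calcium, and in brown fat noradrenaline released in cold acts through cyclic AMP to raise thermogenic transcripts such as Ucp1.

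Each library, made by a method that samples the 3′ ends of mRNAs, held 1570684 to 2016178 counts. Of the identifiers in the table, 11073 genes had enough counts to be tested. Levels are counts scaled to library size (CPM) after scaling by the trimmed mean of M values. RNA of skeletal muscle, a tissue next to the depot, varied at RT: the summed level of 19 muscle markers was 3063 CPM in control RT 1, 1961 CPM in KO RT 1 and 1335 CPM in KO RT 2. The remaining libraries held 51.8 to 444 CPM, with none of the 19 markers at 0 in all libraries. These 3 libraries stand apart, and results below are given without them where that changes what they show; that fit leaves 1 control RT and 1 KO RT library. All 12 brown adipocyte markers were detected, with a summed level of 18343 to 29956 CPM over the 13 libraries.

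For both deleted genes no KO library reached the level of a control library at the same temperature, though for Stim2 the margin was small. This describes the levels and is no test. The fit asks whether the gap between genotypes shifted with cold. In control, Stim1 was at 149.9 and 126 CPM at RT and at 129, 120.5, 134 and 114 CPM in cold. In KO, Stim1 was at 74, 62 and 86.1 CPM at RT and at 81.4, 78.8, 96.8 and 108 CPM in cold. Its difference of cold response was 0.45 ± 0.22 on the log2 scale (value ± standard error), with a 95% interval of -0.01 to 0.91, and 0.10 without the 3 muscle-rich libraries. In control, Stim2 was at 29 and 40.4 CPM at RT and at 31.1, 32.1, 54.5 and 52.9 CPM in cold. In KO, Stim2 was at 22.3, 25.2 and 21 CPM at RT and at 13.5, 29.7, 26.4 and 22 CPM in cold. For Stim2 the difference was -0.29 ± 0.39 (95% interval -1.11 to 0.54), and 0.07 without the 3 muscle-rich libraries. Neither passed the test (q = 0.606 and q = 0.897, where q is the Benjamini-Hochberg adjusted p of edgeR's quasi-likelihood test over 11073 genes). Between genotypes at RT 0 genes passed this test, so neither Stim1 nor Stim2 did there. Tags may come from outside the deleted exons, and the tissue's endothelial, immune and nerve cells are not targeted, so RNA of both genes could be present in KO. The source of that RNA was not tested.

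Of 11073 genes, 2 passed at an adjusted p under 0.05 for the difference, which is 0.0181% of those tested. Both had a smaller response in KO, and no gene with a higher value in KO passed by edgeR. At an unadjusted p under 0.05 there were 913 genes, 8.25% of those tested, with 443 higher (4.00%) and 470 lower (4.24%). The responses themselves were broad: 2793 genes changed with cold in control (25.2%), 1401 higher (12.7%) and 1392 lower (12.6%). In KO 2090 changed (18.9%), 1044 higher (9.43%) and 1046 lower (9.45%). At 4 °C 657 genes differed between genotypes (5.93%), and at RT 0 did by edgeR (346 at an unadjusted p under 0.05, 3.12%, and 3 by DESeq2). The precision of the difference is set by all 4 groups, and its median 95% half-width was 0.71 on the log2 scale, against 0.53 for the cold response in control. Its median over all genes was 0.003, with quartiles of -0.25 and 0.28. DESeq2, an alternative test on the same counts, called 29 genes for the difference, 9 higher and 20 lower, among them both genes called by edgeR.

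**Figure D1:**
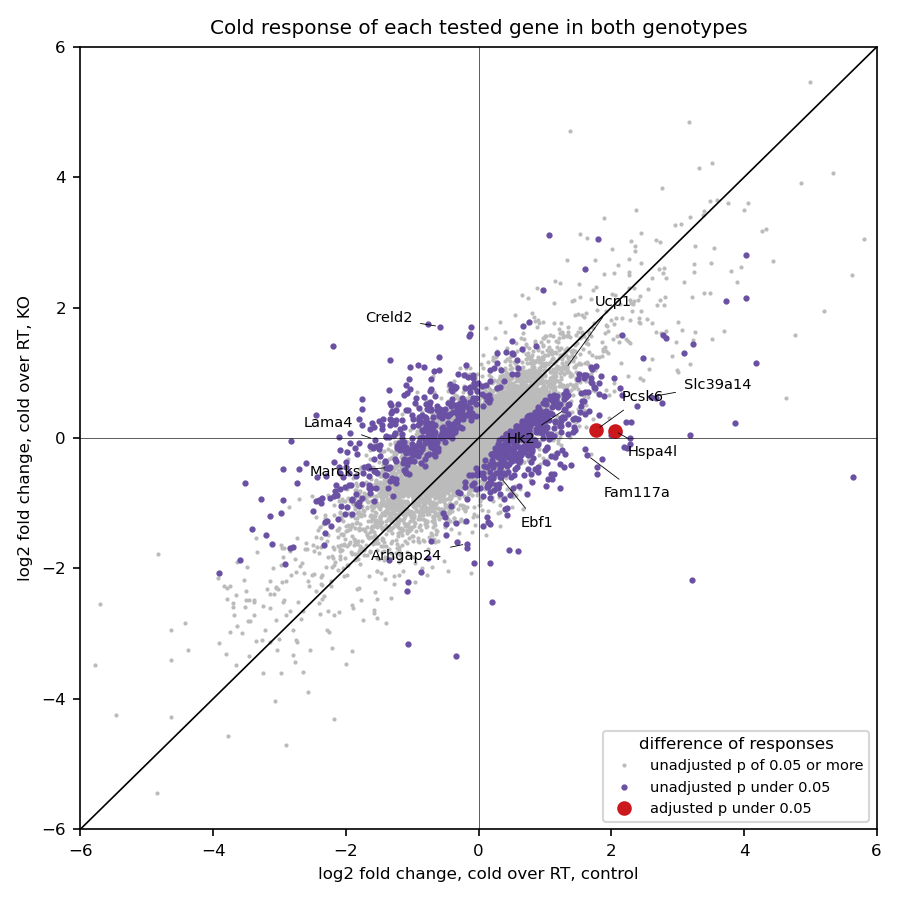
Log2 fold change of cold over RT in control (horizontal axis) against the same in KO (vertical axis), 1 point per tested gene; 15 genes lie outside the plotted range of 6. Points on the diagonal responded alike; Hspa4l and Pcsk6, in red, lie at 2.05 and 1.78 in control and at 0.11 and 0.13 in KO.

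The gene with the smallest p was Hspa4l (ENSMUSG00000025757.14, chromosome 3), which encodes a chaperone related to the Hspa4 nucleotide exchange factors of the cytosol. In control, Hspa4l was at 108 and 118 CPM at RT and at 400.3, 415, 455 and 597 CPM in cold. In KO, Hspa4l was at 99.3, 83.8 and 104 CPM at RT and at 93, 111, 133 and 76.2 CPM in cold. The 4 control cold libraries were higher than every other library, and the KO groups overlapped. Hspa4l rose 4.15-fold in control (q = 9.91e-06) and was 1.08-fold in KO (q = 0.720). The difference was -1.94 ± 0.27 (95% interval -2.52 to -1.37, q = 0.0210). Pcsk6 (ENSMUSG00000030513.15, chromosome 7) encodes a secreted proprotein convertase, an enzyme that cleaves precursors of growth factors and matrix proteins. In control, Pcsk6 was at 47.8 and 55.4 CPM at RT and at 135, 155, 196 and 221 CPM in cold. In KO, Pcsk6 was at 46.1, 41.3 and 46.2 CPM at RT and at 48.3, 49.6, 46.1 and 50.8 CPM in cold. Again only the control cold libraries stood above the rest, and KO cold overlapped KO RT. Pcsk6 rose 3.43-fold in control (q = 1.17e-05) and was 1.09-fold in KO (q = 0.640), a difference of -1.65 ± 0.25 (95% interval -2.17 to -1.12, q = 0.0269). The call of Hspa4l was lost without control RT 1 (q = 0.114), control RT 2 (q = 0.0653), KO RT 3 (q = 0.0874), KO cold 1 (q = 0.0826) or KO cold 2 (q = 0.0567), and that of Pcsk6 without any 1 of the RT or KO cold libraries (q = 0.0604 to 0.153). Without the 3 muscle-rich libraries the values were -1.99 for Hspa4l (q = 0.417) and -1.59 for Pcsk6 (q = 0.457).

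The 8 genes that followed by p did not pass by edgeR, so their values are given without a call. DESeq2 called 8 of these 8 (adjusted p from 0.000286 to 0.0152). Several had a larger response in control, as fitted, than in KO. Fam117a (chromosome 11) was at 121 ± 18.3 CPM (SD, n = 2) in control RT and 378 ± 170.1 CPM (n = 4) in control cold, against 121 ± 23.9 CPM (n = 3) and 100.5 ± 10.3 CPM (n = 4) in KO, a difference of -1.90 ± 0.37, q = 0.152. Control cold 4 held 632 CPM of it and the other control cold libraries 285 to 303 CPM; without that library the difference was -1.54 and passed (q = 0.0161). Slc39a14 (chromosome 14), a zinc transporter, had a low level at RT. In control, Slc39a14 was at 8.74 and 15.7 CPM at RT and at 68.5, 70.4, 53.9 and 96.7 CPM in cold. In KO, Slc39a14 was at 9.12, 9.18 and 8.40 CPM at RT and at 14.7, 13.6, 15.8 and 11.3 CPM in cold. It rose 6.03-fold in control (q = 1.02e-05), and its difference was -1.96 ± 0.39, q = 0.152. Sacm1l (chromosome 9) encodes a phosphoinositide phosphatase of the ER and Golgi. In control, Sacm1l was at 74.9 and 69.9 CPM at RT and at 158, 292, 211 and 227 CPM in cold. In KO, Sacm1l was at 70.9, 63.7 and 76.1 CPM at RT and at 90.6, 91.3, 91.7 and 88 CPM in cold. The control cold libraries lay above all others, and the difference was -1.25 ± 0.25, q = 0.152, passing without control cold 1 (q = 0.0295). Hk2 (chromosome 6) encodes the hexokinase that traps glucose in the cell. In control, Hk2 was at 511 and 477 CPM at RT and at 1106, 1208, 1318 and 1258 CPM in cold. In KO, Hk2 was at 434, 465 and 439 CPM at RT and at 659.7, 525, 627 and 613 CPM in cold. Hk2 rose in control (2.48-fold, q = 5.36e-06) and, by a smaller fold, in KO (1.36-fold, q = 0.00690), with a difference of -0.87 ± 0.16, q = 0.108.

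For 2 genes the fall in control was larger than the fitted value in KO. Lama4 (chromosome 10), a laminin chain of basement membranes, ranked next after the called genes. In control, Lama4 was at 90.1 and 74.7 CPM at RT and at 29.4, 25.9, 37.8 and 17.6 CPM in cold. In KO, Lama4 was at 81.5, 68.9 and 67.2 CPM at RT and at 75.3, 63.6, 74.8 and 72.2 CPM in cold. The control cold libraries were lower than every other library, and the KO groups overlapped. Lama4 fell in control (log2 -1.57 ± 0.20, q = 5.98e-05) and was at -0.02 ± 0.17 in KO (q = 0.943). Its difference was 1.54 ± 0.26, q = 0.0799, and it passed without control cold 3 (q = 0.0232) or control cold 4 (q = 0.0436). Marcks (chromosome 10) encodes a membrane protein that binds actin and calmodulin. In control, Marcks was at 295 and 286 CPM at RT and at 105, 116, 119 and 114 CPM in cold. In KO, Marcks was at 245, 246 and 216 CPM at RT and at 197, 159, 181 and 152 CPM in cold. Marcks fell in both genotypes (log2 -1.35 ± 0.13, q = 5.36e-06 in control and -0.45 ± 0.11, q = 0.0103 in KO), and the difference was 0.90 ± 0.17, q = 0.131. The remaining pair passed for cold in KO and not in control. In control, Arhgap24 (chromosome 5) was at 69.9 and 48.8 CPM at RT and at 44.3, 64.3, 51.4 and 51.5 CPM in cold. In KO, Arhgap24 was at 66.9, 59.7 and 49.9 CPM at RT and at 21.4, 16.2, 18.6 and 20.3 CPM in cold. Only KO cold was low, a change of -1.62 ± 0.18 on the log2 scale (q = 2.38e-05) against -0.18 ± 0.19 in control (q = 0.526). The difference of Arhgap24 was -1.45 ± 0.27, q = 0.108. Ebf1 (chromosome 11) encodes a transcription factor of adipocytes and B cells. In control, Ebf1 was at 326 and 363 CPM at RT and at 412, 431, 521 and 359 CPM in cold. In KO, Ebf1 was at 283, 269 and 249.8 CPM at RT and at 183, 166, 190.1 and 168 CPM in cold. Ebf1 fell in KO (-0.59 ± 0.12, q = 0.00307) and was at 0.32 ± 0.14 in control (q = 0.0992), a difference of -0.92 ± 0.19, q = 0.155.

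**Figure D2:**
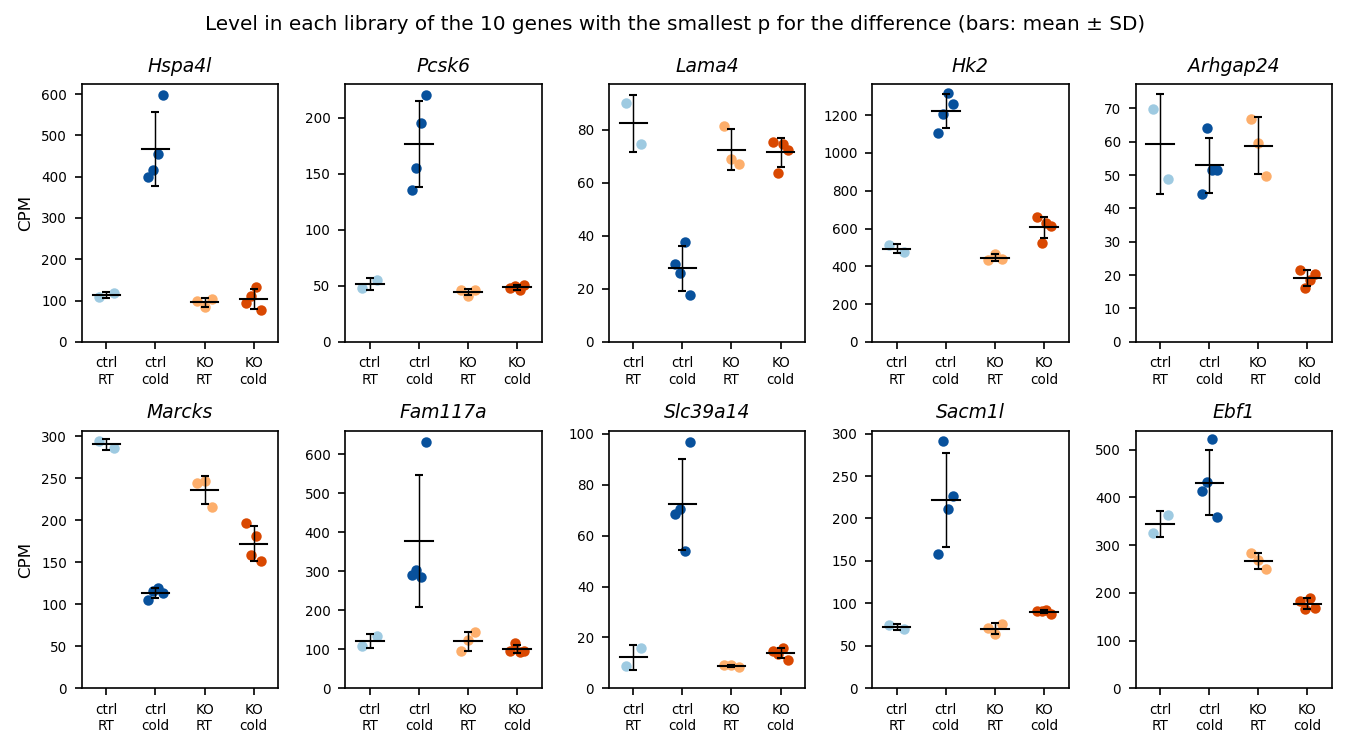
CPM per library (points) by group for the 10 genes with the smallest p of the difference, with the mean and SD as bars; each panel has its own axis from 0. KO cold is apart from the other groups for Arhgap24 and Ebf1, and control cold for the other 8 genes.

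Among the gene lists, chaperones and sensors of the unfolded protein response, by which the ER adjusts its folding machinery, had the highest median difference apart from the muscle markers. Of 33 members tested, 13 were higher and 0 lower at an unadjusted p under 0.05 (4.00% and 4.24% of all genes), and 0 passed after adjustment by edgeR. DESeq2 called 2 members, Creld2 (adjusted p = 0.0350) and Pdia6 (adjusted p = 0.0414), both higher. Over all genes it called 9 higher and 20 lower. The difference was above 0 for 32 of 33, Ern1 being the exception (-0.36 ± 0.34), and its median was 0.63 against 0.003 over all genes. With cold, 18 members rose in KO and 5 in control (9.43% and 12.7% of all genes), and the median cold response was 0.75 in KO and 0.23 in control. At RT the median between genotypes was 0.07. The members share regulation and are not independent of one another, and the list was drawn up with earlier results of these data known. Without the 3 muscle-rich libraries 30 members were above 0 with a median of 0.59.

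A well-known DNA element of such genes, the ER stress response element, reads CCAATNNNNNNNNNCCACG. It was searched on both strands of promoter windows from 250 bases before to 50 after each start, in RefSeq's table for GRCm38.p6. It was found in 39 of 32851 windows of all genes (0.119%) and in 10 of 32 windows (31.2%) of the 28 list members that had one. Several members are textbook carriers of this element and were listed knowing that, so this share is a description and no test. The 3 list members with the smallest p hold it, and the 250 bases before their starts are shown with the element in capitals (on the opposite strand in Creld2 and Calr, where it reads CGTGG first); they were chosen after the values were seen.
Creld2, chr15:88819396-88819645, plus strand: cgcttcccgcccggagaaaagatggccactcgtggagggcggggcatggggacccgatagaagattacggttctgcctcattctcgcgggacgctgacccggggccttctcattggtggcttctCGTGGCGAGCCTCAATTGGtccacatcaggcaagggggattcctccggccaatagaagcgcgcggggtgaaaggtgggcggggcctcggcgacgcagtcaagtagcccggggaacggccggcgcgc
Pdia6, chr12:17266339-17266588, plus strand: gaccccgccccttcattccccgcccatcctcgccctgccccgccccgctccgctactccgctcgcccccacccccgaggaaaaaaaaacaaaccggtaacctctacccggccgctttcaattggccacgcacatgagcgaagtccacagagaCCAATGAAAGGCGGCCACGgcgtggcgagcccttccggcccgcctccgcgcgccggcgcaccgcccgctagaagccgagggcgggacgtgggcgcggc
Calr, chr8:84846932-84847181, minus strand: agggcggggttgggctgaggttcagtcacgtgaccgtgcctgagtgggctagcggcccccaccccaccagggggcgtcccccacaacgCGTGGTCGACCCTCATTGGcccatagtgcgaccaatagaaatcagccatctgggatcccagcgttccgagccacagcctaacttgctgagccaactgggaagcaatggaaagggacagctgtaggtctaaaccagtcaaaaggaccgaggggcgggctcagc

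Creld2 (chromosome 15), a secreted and ER-resident factor with calcium-binding repeats, had the smallest p of the list. In control, Creld2 was at 10.1 and 10.8 CPM at RT and at 2.88, 5.56, 9.29 and 10.6 CPM in cold. In KO, Creld2 was at 10.6, 10.9 and 8.40 CPM at RT and at 18.4, 42.8, 37.1 and 32.2 CPM in cold. The KO cold libraries were above all others, and the control groups overlapped. Its difference was 2.30 ± 0.53, q = 0.232. Pdia6 (chromosome 12) is a protein disulfide isomerase. In control, Pdia6 was at 195 and 198 CPM at RT and at 133, 136, 131 and 172 CPM in cold. In KO, Pdia6 was at 236, 210.0 and 246 CPM at RT and at 238, 406, 359 and 330.1 CPM in cold. All 4 control cold libraries were below control RT, and KO cold 1 lay within the range of KO RT while the other KO cold libraries lay above it. The difference of Pdia6 was 0.99 ± 0.23, q = 0.244. Calr (chromosome 8), calreticulin, is both a chaperone and the main calcium buffer of the ER lumen. In control, Calr was at 128 and 154 CPM at RT and at 154, 172, 162 and 198 CPM in cold. In KO, Calr was at 155, 141 and 192 CPM at RT and at 299, 384, 343 and 415 CPM in cold. Calr rose 2.22-fold in KO (q = 6.65e-05) and was 1.22-fold in control (q = 0.224). The difference was 0.86 ± 0.22, q = 0.255.

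Hspa5, also called BiP, is the main chaperone of the ER lumen. In control, Hspa5 was at 553 and 794 CPM at RT and at 695, 869, 768 and 1491 CPM in cold. In KO, Hspa5 was at 574, 639 and 825 CPM at RT and at 1513, 2479.7, 2204 and 1437 CPM in cold. Control cold 4 lay above KO cold 4 and below the other KO cold libraries, so the cold groups overlapped, and the difference was 0.99 ± 0.37, q = 0.493. Hsp90b1, which folds receptors and integrins, rose 2.50-fold in KO (q = 0.000259) and was 1.33-fold in control (q = 0.183), with a difference of 0.91 ± 0.29, q = 0.394 (0.58 without control RT 2). Manf, a secreted ER stress protein, rose in both genotypes. In control, Manf was at 39.5 and 27.1 CPM at RT and at 43.8, 84.6, 62.6 and 74.8 CPM in cold. In KO, Manf was at 32.4, 25.8 and 38.8 CPM at RT and at 113, 224, 168 and 121 CPM in cold. It rose 1.97-fold in control (q = 0.0299) and 4.82-fold in KO (q = 3.65e-05), and the difference was 1.29 ± 0.40, q = 0.377, and 0.73 without the 3 muscle-rich libraries. Sdf2l1, at low counts, had 6, 5, 8 and 19 counts in control cold and 35, 67, 64 and 36 in KO cold, and its difference was 2.05 ± 0.91, q = 0.566, and 0.87 without these 3 libraries. The sensor Ern1 and its target factor Xbp1 had differences of -0.36 ± 0.34 and 0.35 ± 0.46, and neither reached an unadjusted p under 0.05. With 1 library left out at a time Ern1 ran from -0.77 to -0.07 and Xbp1 from 0.12 to 0.70. Without the 3 muscle-rich libraries they were at -0.60 and 1.17. The integrated stress response is the arm that slows translation. Of 23 members of its list, 3 were higher and 1 lower at an unadjusted p under 0.05 (4.00% and 4.24% of all genes). Its member Shmt2, a mitochondrial enzyme of serine metabolism, was at 10.7 ± 0.192 CPM and 7.09 ± 2.00 CPM in control and at 7.65 ± 0.674 CPM and 18.2 ± 6.43 CPM in KO (RT, then cold), with a difference of 1.84 ± 0.48, q = 0.282.

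Heat shock chaperones of the cytosol, which fold proteins outside the ER, lay on the other side of 0 in most members. Of 24 members tested, 6 were lower and 0 higher at an unadjusted p under 0.05 (4.24% and 4.00% of all genes), and 1, Hspa4l, passed. The difference was below 0 for 19 of 24, with a median of -0.48. With 1 library left out at a time, 2 to 9 members were above 0. Over all alternatives the median ran from -0.95 to -0.21. With cold, 12 members rose in control and 5 in KO (12.7% and 9.43% of all genes), and the median response was 0.64 in control and 0.22 in KO. Without the 3 muscle-rich libraries the median was -0.38. Dnaja4, a co-chaperone of this family, had a low level at RT in either genotype. In control, Dnaja4 was at 8.28 and 16.9 CPM at RT and at 40.9, 44.5, 50.8 and 45.2 CPM in cold. In KO, Dnaja4 was at 10.1, 12.1 and 9.97 CPM at RT and at 20.2, 13.6, 19.1 and 14.1 CPM in cold. The cold groups did not overlap, and its difference was -1.25 ± 0.36, q = 0.318. It was -0.77 without control RT 1 and -0.68 without the 3 muscle-rich libraries. Cacybp, which links ubiquitin ligases to calcium-binding partners, had a difference of -0.80 ± 0.21, q = 0.282: it rose 1.47-fold in control (q = 0.0180) and was 0.846-fold in KO (q = 0.261). Hspa8, the constitutive cytosolic chaperone, was at 60.2 and 181 CPM in control RT. Its difference was -0.97 ± 0.45, q = 0.597, and it was -0.35 without control RT 1 and -1.95 without control RT 2. The stress-inducible Hspa1a did not pass (-0.26 ± 1.35), and its sign changed with the library left out.

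**Figure D3:**
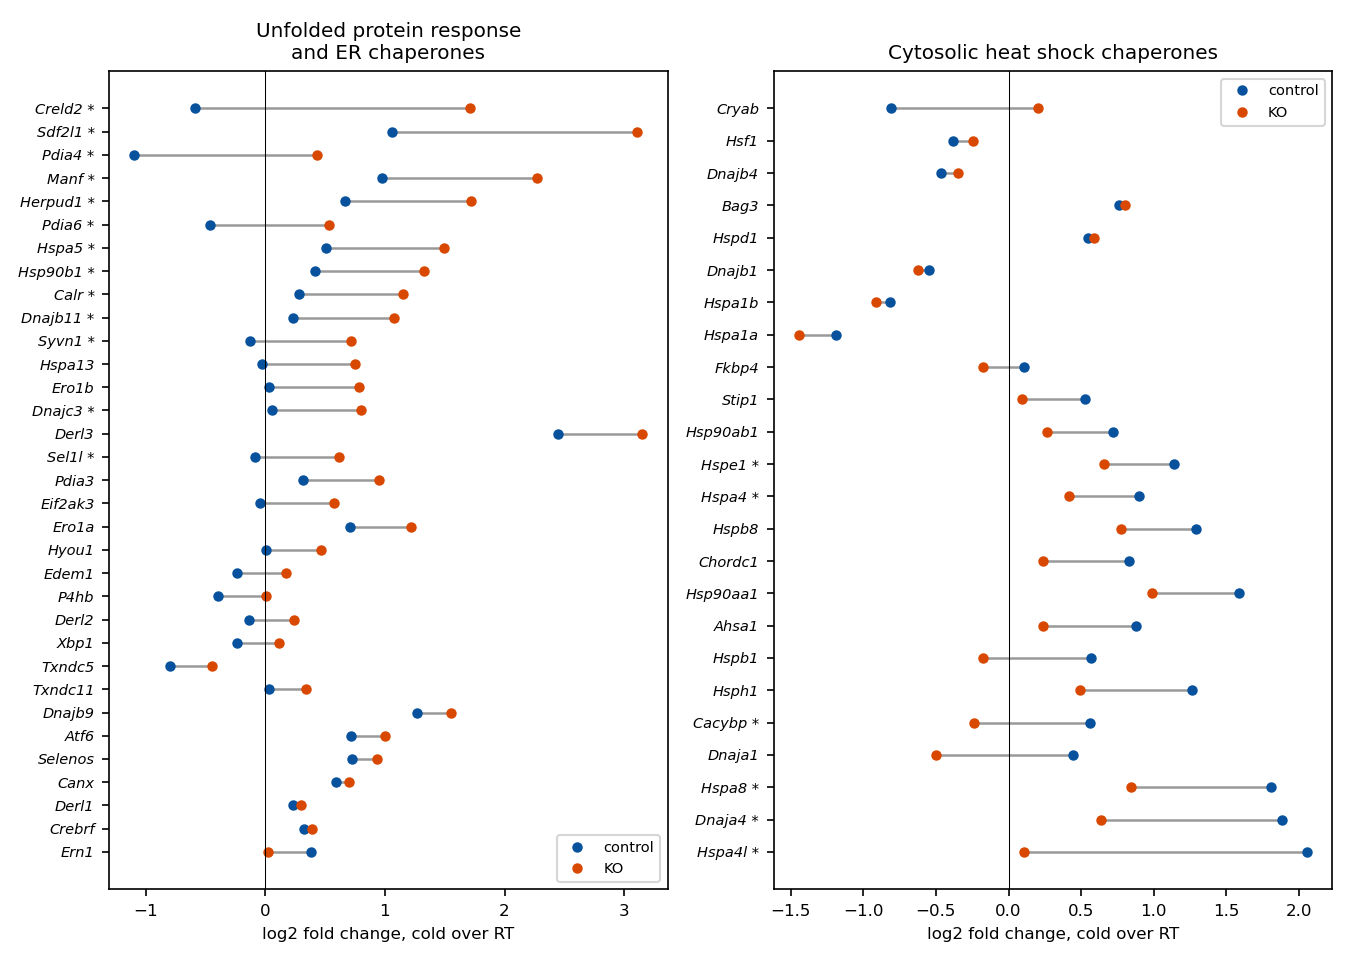
Log2 fold change of cold over RT in control (blue) and KO (orange) for each tested member of both chaperone lists, sorted by their difference; asterisks mark an unadjusted p under 0.05. KO lies to the right of control for 32 of 33 ER genes and to the left for 19 of 24 cytosolic genes.

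Immediate early genes and targets of cyclic AMP signalling are switched on within minutes of stimulation. Of 27 tested, 5 were lower and 1 higher at an unadjusted p under 0.05 (4.24% and 4.00% of all genes). By edgeR or DESeq2 0 passed, and the median difference was -0.45 (-0.36 without Fos, which had no count in control RT). Sik1, a kinase induced by cyclic AMP, was lowest in p. In control, Sik1 was at 7.82 and 33.7 CPM at RT and at 77.2, 77.2, 47.1 and 73.4 CPM in cold. In KO, Sik1 was at 17.2, 60.2 and 36.7 CPM at RT and at 15.9, 36.5, 28.1 and 22 CPM in cold. The cold groups did not overlap, but at RT the libraries of each genotype spread widely. Its difference was -2.33 ± 0.63, q = 0.282 and ranged from -3.67 to -1.56 when 1 library at a time was left out. Without the 3 muscle-rich libraries it was -1.53. Dusp1, a phosphatase of MAP kinases, rose 4.48-fold in control (q = 0.00146) and was 1.58-fold in KO (q = 0.187). In control, Dusp1 was at 52.9 and 118 CPM at RT and at 397, 362, 287 and 469 CPM in cold. In KO, Dusp1 was at 66.9, 211 and 76.6 CPM at RT and at 227, 187, 197 and 134 CPM in cold. KO RT 2 was high, and the difference was -1.50 ± 0.51, q = 0.439. It was -0.78 without KO RT 2 and -0.40 without the 3 muscle-rich libraries. Egr1, a transcription factor, was at 23.8, 127 and 4.72 CPM in KO RT. Its difference of -2.73 ± 1.09, q = 0.520 became -0.89 without KO RT 2 and -0.02 without the 3 muscle-rich libraries. Without the 3 muscle-rich libraries the median of the list was -0.02. Of 24 beta-adrenergic receptors, cyclases, phosphodiesterases and protein kinase A subunits tested, 18 had a difference below 0, with a median of -0.24. At an unadjusted p under 0.05, 1 was higher and 1 lower (all genes 4.00% and 4.24%). Both were regulatory subunits of protein kinase A, Prkar2b (0.45 ± 0.18, q = 0.517; 0.29 without the 3 muscle-rich libraries) and Prkar2a (-0.72 ± 0.19, q = 0.282).

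None of the 22 thermogenic effectors and regulators tested reached an unadjusted p under 0.05 (8.25% of all genes did). Their median difference was -0.06. Ucp1, the proton carrier that makes heat, rose in both genotypes. In control, Ucp1 was at 3187 and 3856 CPM at RT and at 7504, 9365, 8992 and 9102 CPM in cold. In KO, Ucp1 was at 2436, 3601 and 3513 CPM at RT and at 6752, 6783, 6905 and 6125 CPM in cold. The fold was 2.48-fold in control (q = 3.26e-05) and 2.09-fold in KO (q = 5.36e-05), and the cold groups did not overlap. Its difference was -0.25 ± 0.19 (95% interval -0.66 to 0.16, q = 0.802), and -0.40 to -0.11 when 1 library at a time was left out. Ppargc1a, which encodes a coactivator that drives mitochondrial biogenesis, had a wide spread at RT. In control, Ppargc1a was at 128 and 577 CPM at RT and at 1557, 2677, 1114 and 1364 CPM in cold. In KO, Ppargc1a was at 104, 153 and 348 CPM at RT and at 365, 408, 552 and 233 CPM in cold. It rose 4.78-fold in control (q = 0.00767) and was 1.93-fold in KO (q = 0.165). The difference of Ppargc1a was -1.31 ± 0.69, q = 0.652, from -2.76 to -0.58 when 1 library at a time was left out. Dio2, which activates thyroid hormone, was at 69 and 457 CPM in control RT, and its difference of -0.75 ± 0.60, q = 0.810 was 0.07 without control RT 1. Elovl3, a fatty acid elongase of brown fat, rose 11.4-fold in control (q = 5.36e-06) and 6.46-fold in KO (q = 6.30e-06). KO RT lay above control RT for Elovl3, and the difference was -0.81 ± 0.39, q = 0.606. It was -0.37 without KO RT 3 and -1.72 without the 3 muscle-rich libraries.

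**Figure D4:**
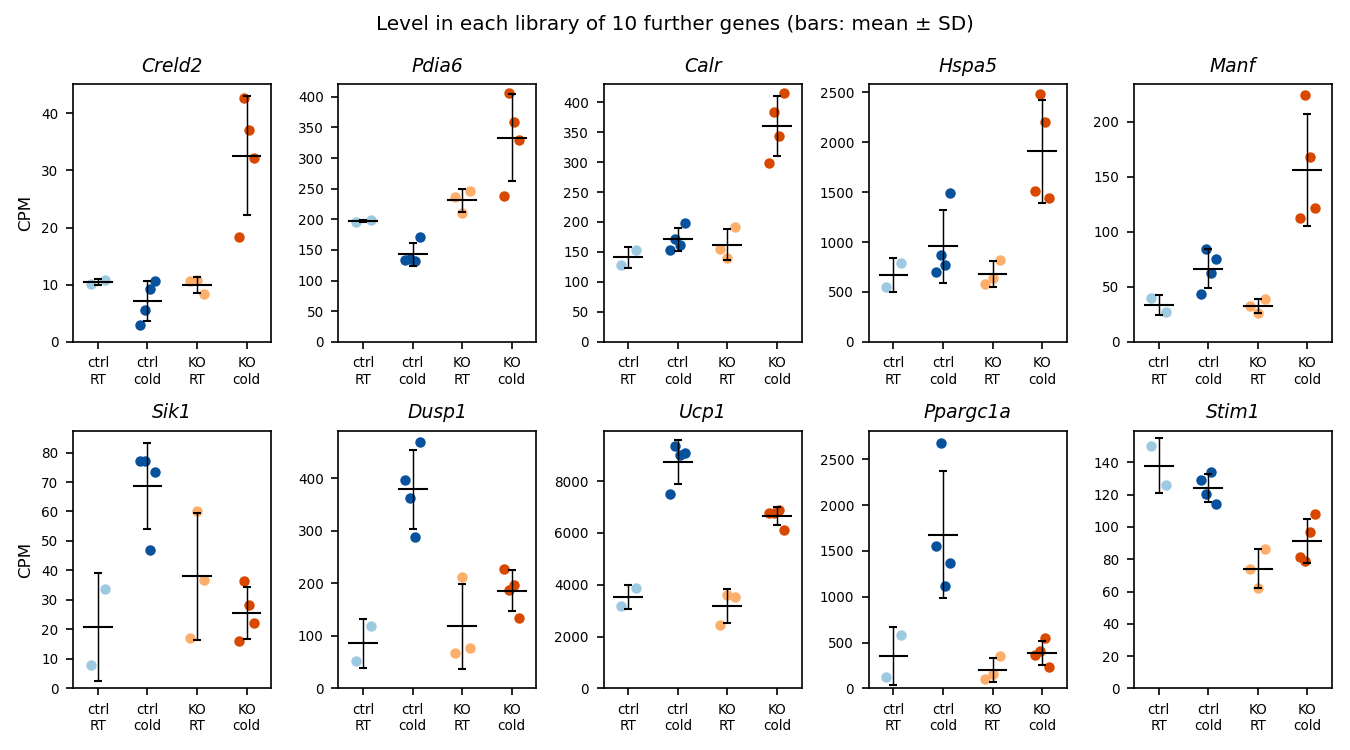
CPM per library (points) by group, with the mean and SD as bars, for ER chaperones (Creld2, Pdia6, Calr, Hspa5, Manf), cyclic AMP targets (Sik1, Dusp1), thermogenic genes (Ucp1, Ppargc1a) and Stim1; axes start at 0. The cold values of Hspa5 in control and the RT values of Sik1 and Dusp1 spread widely.

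Of 17 genes of store-operated entry and ER contacts tested, 3 were higher and 0 lower at an unadjusted p under 0.05. The shares over all genes were 4.00% and 4.24%, and the median of these 17 was -0.05. Orai3, a channel subunit, was the smallest in p. In control, Orai3 was at 28.5 and 36.8 CPM at RT and at 28.2, 24.1, 21.7 and 19.8 CPM in cold. In KO, Orai3 was at 24.8, 27 and 32.5 CPM at RT and at 34.9, 33.4, 36.6 and 36.7 CPM in cold. The cold groups did not overlap, and the difference was 0.79 ± 0.25, q = 0.414. The main channel gene Orai1 was at -0.31 ± 0.50, and at -0.74 to -0.02 when 1 library at a time was left out. Gramd1b, a cholesterol transporter at ER contacts, rose in KO (1.31 ± 0.25, q = 0.00196) and was at 0.28 ± 0.29 in control (q = 0.513), a difference of 1.03 ± 0.38, q = 0.483. It was 1.56 without control RT 1 and 0.29 without control RT 2. Among 15 ER pumps, release channels and buffers tested, Calr and Itpr2 were higher and Atp2a2 lower at an unadjusted p under 0.05. Over all genes these shares were 4.00% and 4.24%. Atp2a2 encodes the SERCA isoform of this tissue, the pump that fills the ER with calcium. In control, Atp2a2 was at 183 and 262 CPM at RT and at 467, 599, 549 and 555 CPM in cold. In KO, Atp2a2 was at 206, 203 and 223 CPM at RT and at 318, 378, 365 and 289.5 CPM in cold. Atp2a2 rose 2.45-fold in control (q = 5.67e-05) and 1.60-fold in KO (q = 0.00269), a difference of -0.61 ± 0.21, q = 0.438 (-0.36 without control RT 1). Itpr2, a receptor channel that releases calcium, fell in both (log2 -1.37 ± 0.13, q = 5.36e-06 in control and -0.76 ± 0.12, q = 0.000348 in KO). Its difference was 0.61 ± 0.18, q = 0.324. Of 12 genes of mitochondrial calcium handling tested, 1 was higher and 2 lower at an unadjusted p under 0.05 (all genes 4.00% and 4.24%). The higher one was Slc8b1, the sodium-calcium exchanger of mitochondria, with 22, 17, 16 and 33 counts in all in control RT, control cold, KO RT and KO cold (1.78 ± 0.67, q = 0.494). The lower ones were Micu3, a gatekeeper of the uniporter, and Mcur1, its regulator (-0.66 ± 0.21, q = 0.394, and -0.46 ± 0.18, q = 0.512). Among 14 genes of calcineurin and NFAT signalling tested, only Nfatc1 was at an unadjusted p under 0.05 (8.25% of all genes). Its difference was 1.12 ± 0.47, q = 0.538.

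Lipid and glucose genes had members on either side of 0. At an unadjusted p under 0.05 (4.00% of all genes higher and 4.24% lower) were 1 higher and 1 lower of 23 genes of glucose uptake and glycolysis, 1 and 1 of 30 of fatty acid oxidation, 3 and 1 of 21 of lipolysis and lipid droplets, and 1 and 3 of 29 of fatty acid and triglyceride synthesis. Trarg1, which guides traffic of the insulin-responsive glucose transporter, had the smallest p of these genes after Hk2. In control, Trarg1 was at 111 and 108 CPM at RT and at 28.8, 13, 20.4 and 18.4 CPM in cold. In KO, Trarg1 was at 97.3, 169 and 76.6 CPM at RT and at 58.8, 109, 75.9 and 55.9 CPM in cold. Trarg1 fell in control (log2 -2.43 ± 0.32, q = 7.67e-05) and was at -0.60 ± 0.26 in KO (q = 0.119), a difference of 1.82 ± 0.42, q = 0.232 (called by DESeq2, adjusted p = 0.0233). Among 22 genes of fatty acid uptake tested, 3 were higher and 1 lower. Lpl, which frees fatty acids from blood lipoproteins, rose 2.16-fold in control (q = 7.17e-06) and 1.51-fold in KO (q = 0.000422), with a difference of -0.51 ± 0.14, q = 0.282 (-0.33 without control RT 1). Angptl4, its inhibitor, had a difference of the opposite sign. In control, Angptl4 was at 177 and 246 CPM at RT and at 159, 105, 70.00 and 157 CPM in cold. In KO, Angptl4 was at 158, 135 and 182 CPM at RT and at 204, 236, 208 and 261 CPM in cold. Angptl4 fell in control (0.580-fold, q = 0.0263) and was 1.44-fold in KO (q = 0.106), a difference of 1.31 ± 0.33, q = 0.255. Gpam, which starts triglyceride synthesis, rose 2.15-fold in control (q = 7.35e-05) and was 1.29-fold in KO (q = 0.0501), a difference of -0.74 ± 0.19, q = 0.255. Lipe, hormone-sensitive lipase, fell in control (0.638-fold, q = 0.00255) and was 0.965-fold in KO (q = 0.807). Its difference was 0.60 ± 0.18, q = 0.364. Of 31 genes of the pyruvate dehydrogenase complex and TCA cycle tested, 1 was higher and 3 lower. Sdhb, a subunit of succinate dehydrogenase, was lowest in the control RT libraries. In control, Sdhb was at 426 and 603 CPM at RT and at 989, 1117, 948 and 858 CPM in cold. In KO, Sdhb was at 887, 899 and 1049 CPM at RT and at 1061, 893, 1001 and 1094 CPM in cold. In cold the groups of Sdhb overlapped, and its difference was -0.83 ± 0.20, q = 0.252 (called by DESeq2, adjusted p = 0.0406). Of 46 nuclear genes of the respiratory chain tested, 0 were higher and 1, Ndufa4, lower (-0.54 ± 0.21, q = 0.499). Their median was -0.10 with 33 below 0, and scaling by library totals alone gave 25 above 0.

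The list of secreted brown fat signals included Pcsk6, which passed. It also holds Npr3, which is a receptor and is among the white adipocyte markers too. Of 17 tested, 4 were lower and 1 higher at an unadjusted p under 0.05 (4.24% and 4.00% of all genes). Their median was -0.43 (-0.24 without Fgf9 and Fgf21, which had at most 3 counts in a group). Npr3, the clearance receptor for natriuretic peptides, rose 4.66-fold in control (q = 0.000963) and was 1.18-fold in KO (q = 0.701). In control, Npr3 was at 28 and 60.9 CPM at RT and at 124, 184, 151 and 361 CPM in cold. In KO, Npr3 was at 25.8, 24.7 and 37.8 CPM at RT and at 29.99, 39.6, 43.9 and 25.4 CPM in cold. Its difference was -1.98 ± 0.54, q = 0.282 (called by DESeq2, adjusted p = 0.0499). Fst, follistatin, which binds activins, rose in both, 3.48-fold in control (q = 0.00381) and 8.31-fold in KO (q = 2.38e-05), and had a difference of 1.26 ± 0.51, q = 0.529. Igf1, a growth factor, fell in both. In control, Igf1 was at 82.8 and 102 CPM at RT and at 48.4, 43.9, 42.1 and 39.5 CPM in cold. In KO, Igf1 was at 118, 135 and 60.9 CPM at RT and at 25.7, 23, 16.9 and 16.4 CPM in cold. The cold groups of Igf1 did not overlap, and its difference was -1.27 ± 0.35, q = 0.282, and -0.33 without the 3 muscle-rich libraries. It belongs also to the list of insulin and growth hormone signalling, of which 5 of 23 tested were lower and 0 higher at an unadjusted p under 0.05 (4.24% and 4.00% of all genes), with a median of -0.30 (-0.06 without the 3 muscle-rich libraries). Socs2, the feedback inhibitor of growth hormone signals, rose 16.3-fold in control (q = 3.93e-06) and 6.97-fold in KO (q = 8.79e-06), a difference of -1.23 ± 0.42, q = 0.443, which was -0.81 without control RT 1 and -0.54 without the 3 muscle-rich libraries. The receptor Ghr (-0.53 ± 0.22, q = 0.537), the adaptor Grb14 (-1.004 ± 0.34, q = 0.439) and the docking protein Irs1 (-0.87 ± 0.40, q = 0.596) were also lower at an unadjusted p under 0.05. Ghr was at -0.12 without the 3 muscle-rich libraries, and Irs1 ran from -1.35 to -0.48 when 1 library at a time was left out.

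A few genes were seen almost only in control cold, where a fold cannot be fitted well. Bdh1, which makes the ketone body hydroxybutyrate, had 0 and 0 counts in control RT and 28, 57, 53 and 39 in control cold. In KO it had 2, 1 and 0 counts at RT and 1, 1, 0 and 5 in cold. Dgkg, a diacylglycerol kinase, had 1 and 0 counts in control RT and 18, 46, 38 and 40 in control cold, against 2, 1 and 1 and 2, 0, 1 and 4 in KO. Fgf9, a growth factor, had 17 counts over both control RT libraries and 267 over the control cold libraries. Over the KO libraries, Fgf9 had 5 counts at RT and 1 in cold. By contrast, Fgf21, a hormone of cold-exposed brown fat, rose with cold in both genotypes, with 0 and 0 and 97, 31, 3 and 96 counts in control and 1, 0 and 0 and 41, 75, 48 and 2 in KO. By edgeR none of Bdh1, Dgkg, Fgf9 and Fgf21 passed for the difference (q = 0.318, q = 0.318, q = 0.445 and q = 0.953), while DESeq2 called Bdh1 (adjusted p = 0.0350) and Fgf9 (adjusted p = 0.0389). Bdh1, Dgkg and Fgf9 had enough counts to be tested only through control cold, where they were high. The DESeq2 calls are therefore a description and no separate support. Fitted fold changes of all these genes depend on the prior count. Bdh1 and Dgkg were named by rule, as the members of their lists with the smallest p. Fgf9 and Fgf21 were chosen, and all were set together, after their values were seen.

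Markers of other cells also differed in part, and in a bulk sample fewer cells of a type and less RNA per cell cannot be told apart. Of 21 fibroblast and progenitor markers tested, 19 had a difference below 0, with a median of -0.62. At an unadjusted p under 0.05, 2 were lower and 0 higher (4.24% and 4.00% of all genes). These were Lox, which crosslinks collagen (-0.83 ± 0.33, q = 0.512), and Fn1, fibronectin (-1.03 ± 0.44, q = 0.555). Fn1 was at -0.67 without control cold 2 and at -0.63 without KO RT 1. The summed level of all 22 was 2526 to 2551 CPM in control RT, 2076 to 3375 CPM in control cold, 2174 to 3242 CPM in KO RT and 1955 to 2405 CPM in KO cold, and none of them was at 0 in all libraries. Without the 3 muscle-rich libraries 9 were above 0 and the median was -0.36. Of 21 endothelial markers tested, 16 were above 0. At an unadjusted p under 0.05, 3 were lower (4.24% of all genes), among them Col4a2, a basement membrane collagen. In control, Col4a2 was at 98.9 and 98.8 CPM at RT and at 176, 164, 222 and 245 CPM in cold. In KO, Col4a2 was at 93.2, 104 and 66.7 CPM at RT and at 101, 124, 109.7 and 94.2 CPM in cold. Control cold was above all others, and the difference was -0.74 ± 0.26, q = 0.444, and -0.34 without the 3 muscle-rich libraries. Their summed level was 1773 to 1843 CPM in control RT, 1823 to 2925 CPM in control cold, 1452 to 2027 CPM in KO RT and 1999 to 2434 CPM in KO cold. Macrophage markers gave 0 of 17 in either direction, with summed levels of 256 to 454 CPM in control RT, 183 to 456 CPM in control cold, 224 to 284 CPM in KO RT and 187 to 238 CPM in KO cold. The muscle markers had a median difference of 0.76, also with 0 of 18 in either direction. The part of these cells in the differences above was not tested.

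For further lists the counts at an unadjusted p under 0.05 were as follows, beside 4.00% higher and 4.24% lower over all genes. Ribosomal proteins gave 0 of 31 at an unadjusted p under 0.05, cholesterol synthesis 0 of 23 and the core clock 0 of 19. Proteasome subunits gave 3 lower of 33, with a median of -0.07, and genes of ER translocation and glycosylation 2 higher of 41, with a median of 0.12. Diacylglycerol kinases and protein kinase C gave 3 lower of 17, hypoxia and angiogenesis 1 higher of 17 and glucocorticoid targets 1 higher of 13. Creatine and branched-chain amino acid genes gave 1 higher and 1 lower of 21. Smooth muscle markers gave 2 lower of 13, Schwann cell markers 1 lower of 6 and brown adipocyte markers 1 higher of 12. White adipocyte markers gave 1 higher and 1 lower of 6. Adipocyte identity factors gave 2 higher and 4 lower of 23. Of these, Cav1, which forms caveolae, rose 1.35-fold in control (q = 0.0308) and was 0.884-fold in KO (q = 0.342), with a difference of -0.62 ± 0.19, q = 0.356, and -0.23 without the 3 muscle-rich libraries. Slc25a44, which carries branched-chain amino acids into mitochondria, fell in KO (-0.39 ± 0.12, q = 0.0280) and was at 0.30 ± 0.14 in control (q = 0.114). The difference of Slc25a44 was -0.70 ± 0.18, q = 0.282.

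**Figure D5:**
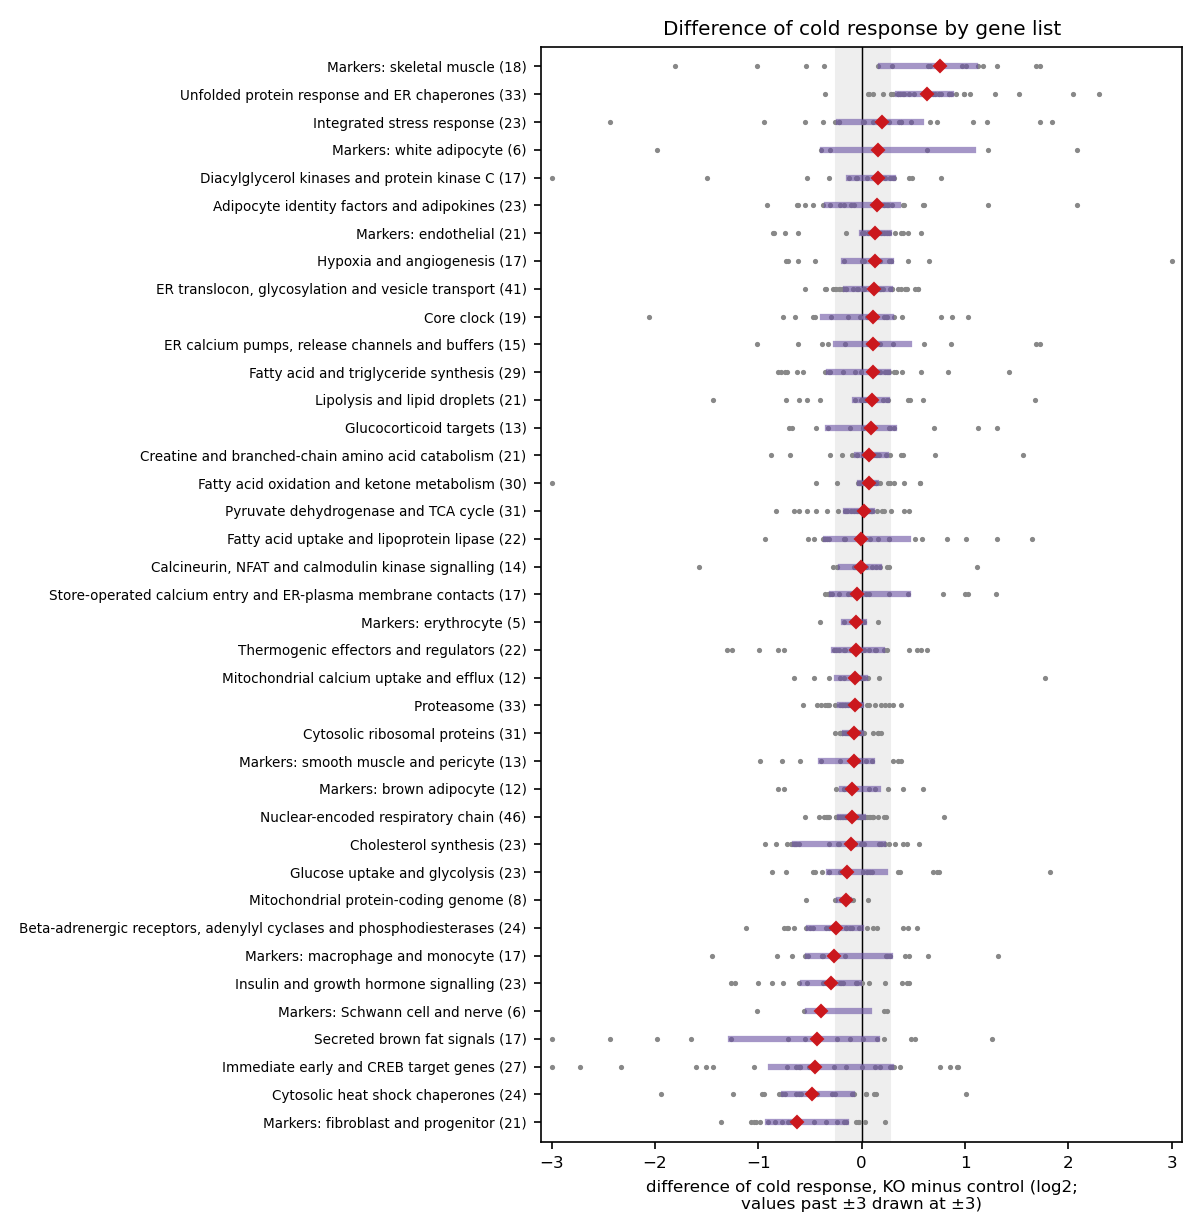
Difference of cold response (KO minus control, log2) for each tested member (dots) of the 39 lists with at least 5 tested genes, with the median (diamond) and the quartiles (bar); values past 3 are drawn at 3. The grey band holds the quartiles of all tested genes, -0.25 and 0.28; ER chaperones (median 0.63) lie to its right and heat shock chaperones (-0.48) to its left.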

How the data were processed

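RNA of brown adipose tissue was measured in 13 libraries (Lexogen QuantSeq, per the labels' protocols). The table that the authors deposited gives unscaled whole-number counts of each gene of Ensembl release 103, as its name says. Reads were handled, per the submitters' processing notes, with STAR 2.7.10b, HTSeq 0.12.3, UMI-tools 1.1.2 and Trim Galore 0.6.7 on GRCm39, and edgeR and limma are listed too. Use of strand and collapsing of molecular identifiers are not stated there, so overlapping genes may share counts. The table has 55632 lines, of which 275 repeated an identifier and were dropped. For 2558 identifiers without a symbol, 387 symbols came from a reference gene table. Genes passing filterByExpr (minimum count 10), 11073 in all, were fitted with edgeR 4.0.16 in R 4.3.3: TMM scaling, a quasi-likelihood fit with 1 coefficient per group, two-sided contrasts, Benjamini-Hochberg adjustment over all tested genes and calls at an adjusted p under 0.05. The shared biological coefficient of variation was 16.1%. Standard errors are the log2 value over the root of the F statistic.

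The members, the 41 gene lists (867 of 873 symbols in the table) and the alternatives were chosen with earlier results of these data known. Named by rule were Stim1, Stim2, Ucp1, called genes, the 10 genes with the smallest p, and, of each list, the called members or the member with the smallest p; the other genes were named after their values were seen. The script was tested on simulated data. Alternatives were DESeq2 1.42.0, limma 3.58.1 voom, other scaling and filters, the replicate number as a block, each library left out in turn, and, added after seeing the data, the 3 muscle-rich RT libraries left out together. Coordinates of promoters are in GRCm38.p6; those of the files' build are not used here.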

Additional observations from a re-analysis of the deposited data

Results flagged for a closer look

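Of the genes tested, 2 had a difference of cold response past the threshold in a test of the difference itself (edgeR's quasi-likelihood test): Hspa4l at -1.94 and Pcsk6 at -1.65 on the log2 scale, with adjusted p of 0.0210 and 0.0269. Both responses were higher in control.

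Within groups of 4 libraries, the gap between the highest or lowest library and its neighbour was divided by the range, and 12 of 174 such groups over 87 named genes passed Dixon's 95% critical value. Chance flags about 1 in 20 groups. Control cold 4 stood apart for Fam117a (0.9488), Pdia6 (0.8857) and Lrrn4 (0.8813), each time with the highest level, and for Scd1 (0.8793) with the lowest. Control cold 3 was lowest for Sik1 (0.8734), and control cold 2 was highest for Fn1 (0.8562). Among KO cold libraries, KO cold 1 was highest for Grb14 (0.904), and KO cold 2 was highest for Fam117a (0.8743) and held the only count of Fgf9 (1). KO cold 4 was lowest for Lipe (0.8367) and highest for Mcur1 (0.8356) and Fst (0.8449).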

How the results depend on the processing

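The count of genes called for the difference was 2 with RLE scaling, with library totals and with a minimum count of 30. It was 29 with DESeq2, 1 with limma voom, 133 with no filter on low counts (54 higher, 79 lower) and 0 without the 3 muscle-rich RT libraries. With the replicate number as a block it was 0, and adjusted p of both called genes was 0.0827. Deviations from the group mean were correlated above 0.1 in 3 of 16 same-numbered pairs (range -0.23 to 0.33). Of 46 other-numbered pairs 14 were above 0.1 (range -0.33 to 0.30). This check cannot exclude pairing by number, since the deviations of the 2 control RT libraries mirror each other. With 1 library left out at a time the count of called genes ran from 0 to 4. It was 0 without control RT 1 or 2, KO RT 3 or KO cold 1 or 2. For cold in control that range was 1067 to 2821 (lowest without control RT 1) and for cold in KO 1219 to 2271 (lowest without KO RT 1); without the 3 muscle-rich libraries the counts were 870 and 452. KO against control in cold gave 392 to 716, the 4 lowest being those without a KO cold library (425, 417, 400 and 392). At RT it gave 0 to 3, 3 with DESeq2 and 50 with no filter. Fewer libraries enter each of these fits; the cause of the other changes was not tested. Library totals moved the median difference of all genes to 0.103 and the split of calls to 789 higher and 2335 lower for cold in control (1401 and 1392 with TMM), 750 and 1455 for cold in KO, and 472 and 264 for KO against control in cold. Of 1818 values of the 87 named genes under an alternative, 17 changed sign, in 8 genes that did not pass. Dio2 ran from -2.67 to 0.067 with 1 library left out, Ptprc from -0.024 to 2.07, Alas2 from -1.19 to 0.33, Lrrn4 from -0.51 to 0.27, Atp2a1 from -8.05 to 2.78 (-0.59 with voom) and Hspa1a from -3.44 to 1.007 (0.51 with the replicate block). Without the 3 muscle-rich libraries Per3 was at -0.17, Stim2 at 0.068, Alas2 at 0.75, Lrrn4 at 0.39 and Atp2a1, a muscle gene, at -4.43. Depth limits genes with few counts, such as Fos and Bdh1.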
